A study of Mus musculus with 25 samples.

Results

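Hippo kinases and the partners of Mst1 were followed as 10 genes: Stk4, which encodes Mst1, its scaffold Sav1, the co-activators Mob1a and Mob1b, the kinases Lats1, Lats2, Stk38 and Stk38l, and the Ras-association proteins Rassf5 and Rassf2. They were taken by gene symbol from the probe table, as 10 of the 19572 transcript clusters with exactly 1 symbol, out of 22206 clusters tested. Each symbol had 1 cluster, and each of the 10 read above the median of the negative controls on 25 of 25 arrays, so none was lost to a filter. That is a low bar, since many negative controls lie above their own median. Mob1b (6.67 to 7.44), Lats2 (6.74 to 8.62) and Stk38l (6.98 to 8.34) reached below the array medians of 7.28 to 7.39. Their values lie nearer to background than those of the other members. A transcript cluster is the array's set of probes for 1 gene, and its value is a log2 level, on which a difference of 1 is a doubling. Levels of different clusters are not comparable with each other, so each gene is compared only with itself.

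The arrays were made from invariant natural killer T (iNKT) cells, T lymphocytes that recognise lipids on CD1d, sorted from the thymus of C57BL/6 mice. The labels name wild-type cells as WT, cells without Mst1 as Mst1KO and cells without Mst1 and Mst2 as dKOMst. Sorted cells were TCRb+, CD1d-PBS57 tetramer+ and CD24-, and were divided by CD44 and NK1.1 into stages 1 and 2, which lack NK1.1 and are labelled together as S1_S2, and the NK1.1+ stage 3, named S3. The 6 groups held 6 WT_S1_S2, 4 Mst1KO_S1_S2, 2 dKOMst_S1_S2, 7 WT_S3 and 5 Mst1KO_S3 arrays and 1 dKOMst_S3 array. The labels give no age, no design of the alleles, no promoter or Cre, and leave unsaid if each array is 1 animal or a pool. Tests here therefore weigh array-to-array spread alone, and part of that spread can be technical.

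A gap in the title numbers divides the arrays into a first run of 16 that holds every Mst1KO array and a later run of 9 that holds every dKOMst array; the latter is called the second run. WT arrays lie in both, so the run was a term of the model. Replicates correlated at r of 0.981 to 0.993 across clusters. The 9 measured of 10 listed iNKT and T cell markers, Zbtb16 and the Cd3 genes among them, read above the negative controls on every array. No Y-linked signal was seen on 4 arrays, Mst1KO replicates 3 and 4 of each stage.

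In the Hippo pathway the kinases Mst1 and Mst2, with the scaffold Sav1, phosphorylate Lats and NDR kinases and their Mob1 co-activators. Lats kinases in turn hold the co-activators Yap and Taz out of the nucleus in many tissues. In lymphocytes Mst1 is better known for acting with Rassf5 (also called RAPL or Nore1) and with Mob1 and the NDR kinases in integrin adhesion, trafficking and survival, and mice and people without it have few naive T cells.

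The promoter windows of 4 members whose level passed the test in at least 1 comparison are printed so that the sequence can be read beside the values. Lats2, which also passed in 1 comparison, has 2 windows, and these are not printed. They run from 250 bases before to 50 bases after the annotated start, 5′ to 3′ on the strand of the gene, from RefSeq on build GRCm38.p6. They lie at chr2:164073888-164074187 (plus strand) for Stk4, chr12:69986953-69987252 (minus) for Sav1, chr17:29007946-29008245 (minus) for Stk38 and chr1:131200136-131200435 (minus) for Rassf5. Capitals mark matches on either strand to any of 3 short cores, CCGGAA of ETS factors, CATTCC of TEAD factors, the partners of Yap, and TGTGGT of RUNX factors, a choice made after the values were seen.
Stk4: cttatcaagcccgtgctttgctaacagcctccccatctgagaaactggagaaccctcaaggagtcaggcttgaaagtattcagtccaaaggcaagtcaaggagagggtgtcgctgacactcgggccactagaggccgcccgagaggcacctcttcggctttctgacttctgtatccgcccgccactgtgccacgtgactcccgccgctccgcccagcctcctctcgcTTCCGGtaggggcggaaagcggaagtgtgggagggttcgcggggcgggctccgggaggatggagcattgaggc
Sav1: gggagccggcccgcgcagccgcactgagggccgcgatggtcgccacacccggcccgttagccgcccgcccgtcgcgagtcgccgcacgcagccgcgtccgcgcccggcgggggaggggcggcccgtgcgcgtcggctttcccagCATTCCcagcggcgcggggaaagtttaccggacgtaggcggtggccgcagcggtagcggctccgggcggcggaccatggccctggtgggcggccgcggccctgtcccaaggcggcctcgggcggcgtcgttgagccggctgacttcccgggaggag
Stk38: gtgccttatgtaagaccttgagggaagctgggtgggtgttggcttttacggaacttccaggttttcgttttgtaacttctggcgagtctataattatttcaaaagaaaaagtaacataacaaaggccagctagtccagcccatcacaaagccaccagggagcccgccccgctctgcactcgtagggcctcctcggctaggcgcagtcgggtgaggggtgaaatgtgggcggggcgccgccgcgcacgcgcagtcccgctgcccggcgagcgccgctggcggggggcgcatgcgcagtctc
Rassf5: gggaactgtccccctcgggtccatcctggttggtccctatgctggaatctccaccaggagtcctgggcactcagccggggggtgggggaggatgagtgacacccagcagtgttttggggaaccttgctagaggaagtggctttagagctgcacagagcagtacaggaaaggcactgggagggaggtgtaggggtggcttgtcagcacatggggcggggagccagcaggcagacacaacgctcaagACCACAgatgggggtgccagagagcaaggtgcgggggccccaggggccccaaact
The Stk4 window holds 1 ETS core, the Sav1 window 1 TEAD core and the Rassf5 window 1 RUNX core, while the Stk38 window has no match. All 10 members matched the RefSeq table, with 11 promoters since Lats2 has 2, and the TEAD core also occurred in those of Mob1a, Rassf2 and 1 of the Lats2 promoters. Over the 32851 promoters of the table the ETS core was found in 14.9%, the TEAD core in 14.7% and the RUNX core in 16.8%. GC content ran from 42.7% to 78.3% in the members' promoters and was above the table's median of 52.7% in 10 of 11. These matches describe letters in a window and say nothing on binding.

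Of the 10 genes, Stk4 fell in Mst1KO at S1_S2, Sav1 rose from S1_S2 to S3 in both WT and Mst1KO cells, and Stk38 fell and Rassf5 rose from S1_S2 to S3 in WT cells. At S3 Stk38 was higher and Rassf5 lower in Mst1KO than in WT, and Lats2 rose between the Mst1KO stages. A difference is called here when limma's adjusted p is under 0.05 over all 22206 clusters. The Rassf5 call at S3 and the Lats2 call were near this threshold (limma adjusted p = 0.0399 and 0.0474). Leaving out 1 array lost the first in 8 of 12 fits and the second in 6 of 9. Between the WT stages 3 of 10 members were called, 2 higher and 1 lower in S3, with 16.9% of all clusters called and a median difference of 0.15 over members and 0.01 over all clusters. In Mst1KO against WT 1 of 10 was called at S1_S2 (0.522% of all clusters) and 2 of 10 at S3 (6.37% of all clusters). Between the Mst1KO stages 2 of 10 were called, both higher in S3, with 10.2% of all clusters. With 1 to 3 of 10 called in each of these comparisons, the members' share is not read as different from that of all clusters. In the arrays labelled dKOMst_S1_S2 none was called against WT (0.923% of all clusters) or against Mst1KO (0.171%), where limma's unadjusted p was under 0.05 for 2 and 1 of 10.

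**Figure D1:**
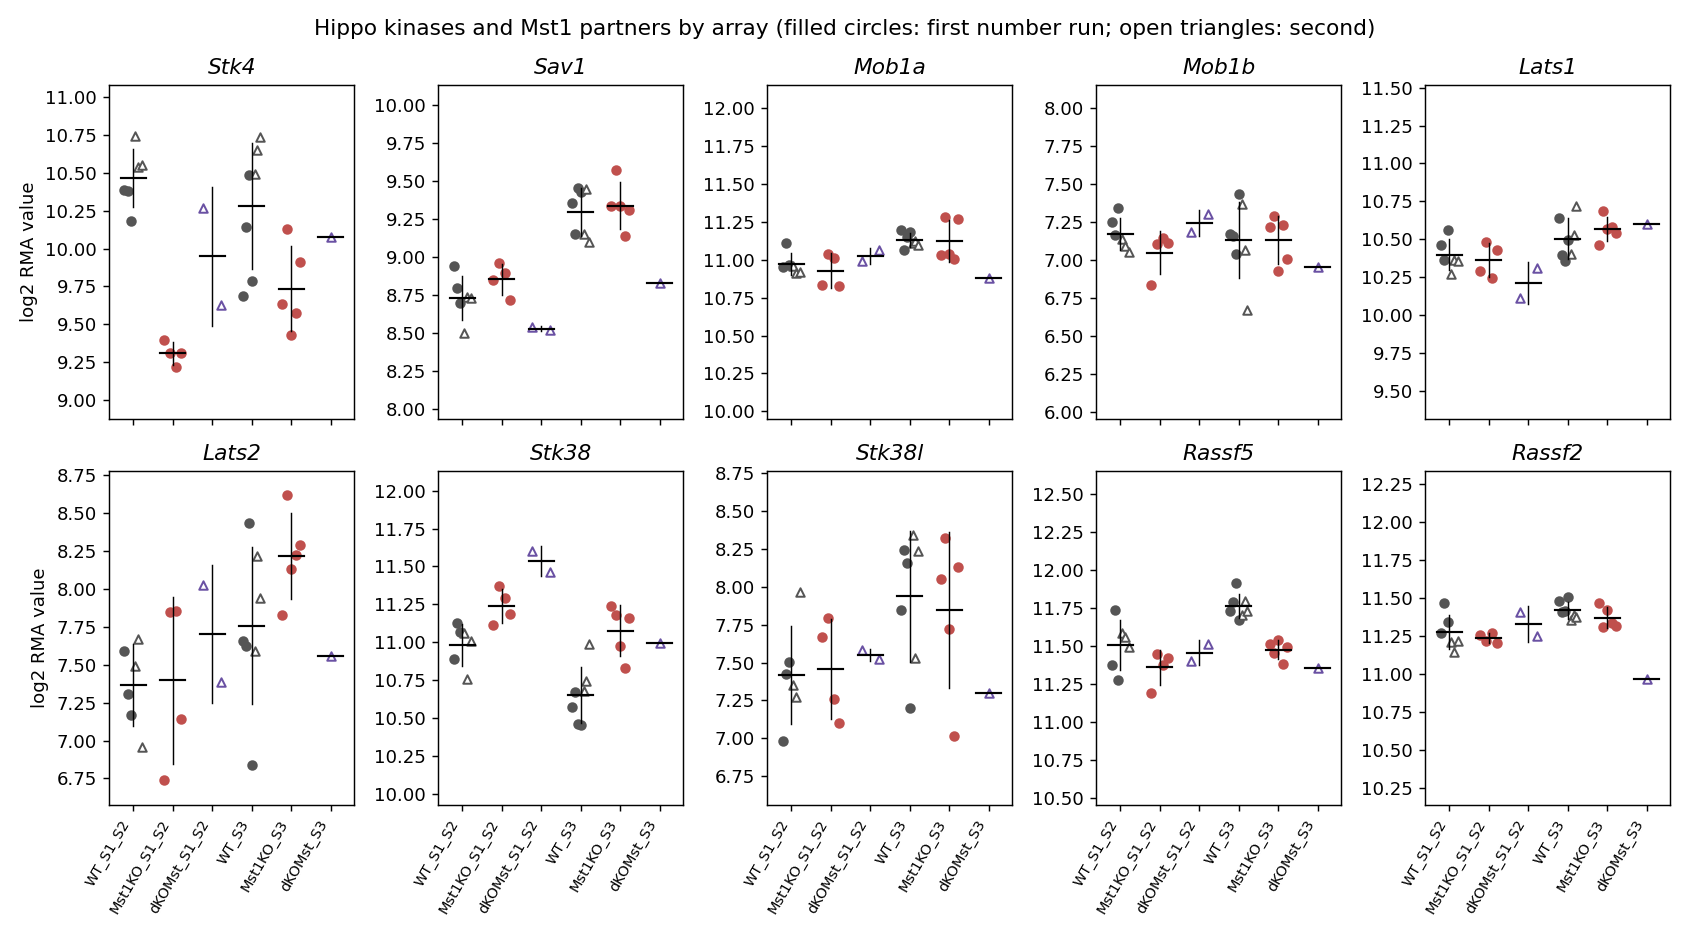
Log2 RMA value of each member on each of the 25 arrays, by genotype and stage, with filled circles for the first number run, open triangles for the second, a bar for the group mean and a line for ±SD. Each panel spans the same number of log2 units: Stk4 sits lowest in Mst1KO_S1_S2 (9.22 to 9.40), Sav1 is higher in WT_S3 and Mst1KO_S3 than in the S1_S2 groups, and Mob1a spans only 0.46 over all arrays.

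Stk4, the targeted gene, was read first, since it checks the labels. In WT_S1_S2 the lowest, median and highest of 6 arrays were 10.18, 10.46 and 10.74. In Mst1KO_S1_S2 the 4 arrays read 9.40, 9.31, 9.22 and 9.31, all below every WT array of the stage. Stk4 was lower in Mst1KO at S1_S2 by a log2 difference of 0.92 ± 0.16 (SE), at 0.527 of the WT level (limma adjusted p = 0.00592), and the signal that remained was still well above the negative controls, whose medians lay between 6.19 and 6.59. Within the first run the difference was -1.0 ± 0.18 (adjusted p = 0.0164). With the 2 Mst1KO_S1_S2 arrays that carry Y-linked signal alone it was -0.88 ± 0.20 and no longer passed (adjusted p = 0.153). In bulk samples such as these, fewer cells with a transcript and less of it per cell cannot be told apart.

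At S3 the Stk4 values of the genotypes overlapped. WT_S3 ran from 9.69 over a median of 10.49 to 10.73 in 7 arrays, and Mst1KO_S3 read 9.64, 10.13, 9.43, 9.58 and 9.91. Mst1KO_S3 replicates 2 and 5 were each above 2 of the WT arrays. The difference of -0.35 ± 0.15 did not pass (limma adjusted p = 0.152), and it was -0.29 ± 0.16 within the first run. The effect of Mst1KO was smaller in size at S3 than at S1_S2 by 0.57 ± 0.20, a difference of effects that did not pass either (adjusted p = 0.358), and 0.158% of all clusters were called in that comparison with 0 of 10 members (unadjusted limma p under 0.05 for Stk4 alone). Between the Mst1KO stages Stk4 differed by 0.43 ± 0.16 (adjusted p = 0.0876). All Mst1KO_S3 arrays read above all Mst1KO_S1_S2 arrays. That comparison passed without Mst1KO_S3 replicate 3 (0.50 ± 0.16, adjusted p = 0.0491). The labels do not say where the deleted part of Stk4 lies relative to its probes, and probes beyond that part would not check the label.

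The run itself went with Stk4. The WT arrays of the second run read 10.74, 10.54 and 10.55 at S1_S2 and 10.49, 10.65 and 10.73 at S3, and those of the first 10.39, 10.38 and 10.18 at S1_S2 and 9.69, 10.14, 10.49 and 9.78 at S3. At S1_S2 every second-run value lay above every first-run value, while at S3 the lowest second-run value matched the highest of the first run. The run term for Stk4 was 0.46 ± 0.13 (limma adjusted p = 0.037), the 1 of 10 members called among 6.13% of all clusters. This call was lost when WT_S1_S2 replicate 3 or 4 or WT_S3 replicate 1, 4, 5, 6 or 7 was left out, with an adjusted p of up to 0.0843. Between the WT stages Stk4 differed by -0.15 ± 0.13 (adjusted p = 0.534), with -0.29 ± 0.18 in the first run and 0.01 ± 0.16 in the second.

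**Figure D2:**
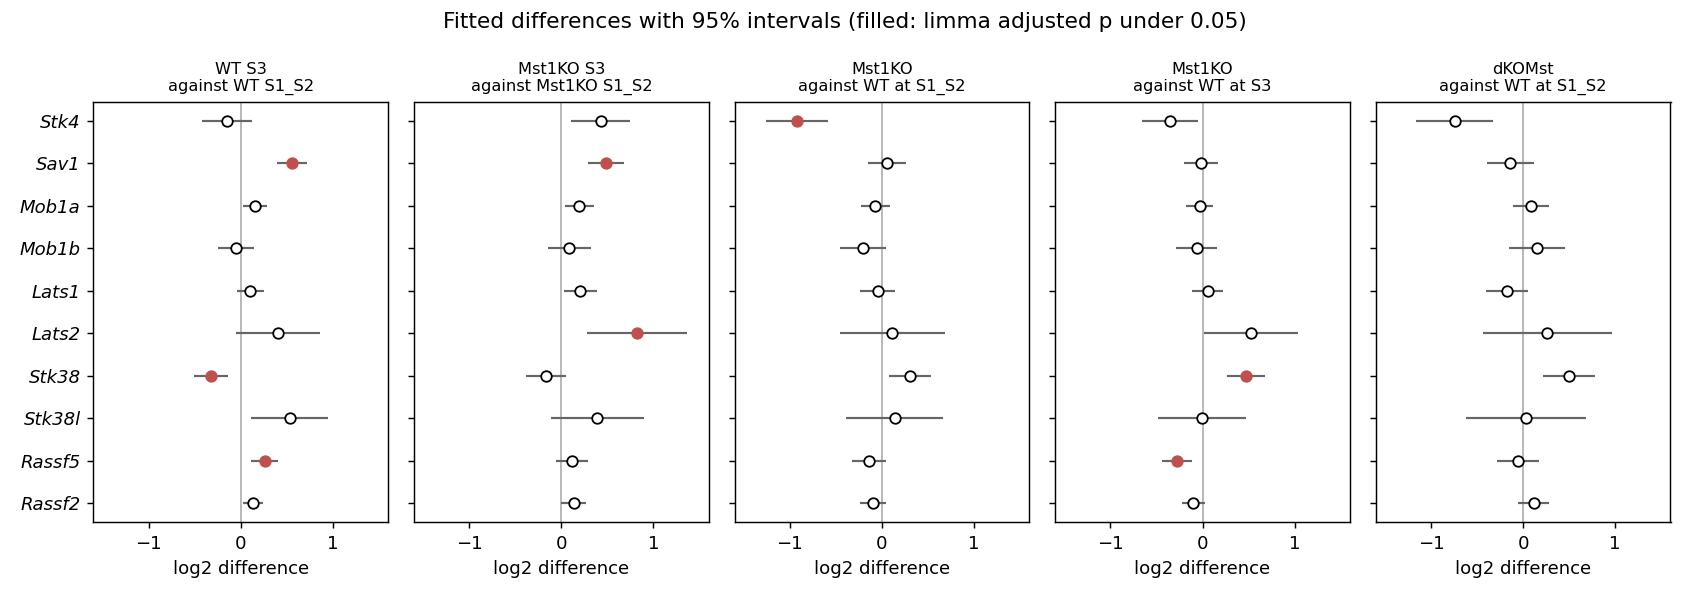
Fitted log2 differences of the 10 members in 5 comparisons, with 95% intervals from the moderated limma fit, filled where the adjusted p is under 0.05. Sav1 is filled in both stage comparisons, Stk4 only in Mst1KO at S1_S2, and Stk38 lies below 0 between the WT stages and above 0 in Mst1KO at S3.

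Sav1, the scaffold that holds Mst kinases and Lats kinases together, was the member with the firmest change. It ran from 8.50 over 8.73 to 8.94 in WT_S1_S2 and from 9.10 over 9.36 to 9.46 in WT_S3, so the stages did not overlap. Sav1 rose by 0.56 ± 0.08 in WT cells, 1.47-fold (limma adjusted p = 1.3e-05). The rise was 0.54 ± 0.11 in the first run (adjusted p = 0.00457) and 0.58 ± 0.12 in the second (adjusted p = 0.0184). In Mst1KO the S1_S2 arrays read 8.84, 8.96, 8.89 and 8.72 and the S3 arrays 9.34, 9.57, 9.33, 9.13 and 9.31, again apart. This rise was 0.48 ± 0.10 (adjusted p = 0.00122). The stage differences of the genotypes differed by -0.07 ± 0.12 (95% interval -0.33 to 0.18). Both Sav1 calls held in all settings tried. Markers listed for NK cells, many of them shared by NK1.1+ iNKT cells, moved with the stage too: the mean over the 4 measured of 5 was 5.96 to 6.25 in WT_S1_S2 and 7.30 to 7.85 in WT_S3, with Ncr1 above the negative controls on 5 of 25 arrays, and their part in the stage results was not tested. Mst1KO and WT did not separate: Sav1 differed by 0.05 ± 0.10 at S1_S2 (95% interval -0.15 to 0.26) and by -0.02 ± 0.09 at S3 (-0.20 to 0.17).

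Mob1a and Mob1b encode co-activators that bind and activate Lats and NDR kinases once Mst kinases have phosphorylated them. Mob1a was the steadiest member, with a range of 0.46 over 25 arrays, at percentile 3.78 of the ranges of all clusters. Its lowest, median and highest values were 10.91, 10.96 and 11.11 in WT_S1_S2 and 11.06, 11.12 and 11.19 in WT_S3. Only WT_S1_S2 replicate 2 reached into the S3 values. The WT stage difference of 0.16 ± 0.06 did not pass (limma adjusted p = 0.0931), nor did that of 0.20 ± 0.07 in Mst1KO (adjusted p = 0.101). It passed in WT when only clusters above the median mean level were tested (adjusted p = 0.0437) and with a trended and robust variance (adjusted p = 0.0455). Mob1b means lay between 7.05 and 7.24 in all groups with replicates, below the array medians of 7.28 to 7.39. None of the Mob1b differences passed, at a level near background. The 95% interval of the Mob1b difference between Mst1KO and WT was -0.45 to 0.04 at S1_S2 and -0.29 to 0.16 at S3.

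Stk38 and Stk38l encode the NDR1 and NDR2 kinases, which Mst1 phosphorylates and which are tied to T cell survival and egress from the thymus. Stk38 ran from 10.76 over 11.03 to 11.13 in WT_S1_S2 and from 10.45 over 10.67 to 10.99 in WT_S3. Of the 7 WT_S3 arrays only replicate 7, at 10.99, reached into the S1_S2 values. Stk38 fell by 0.32 ± 0.09 from S1_S2 to S3 in WT cells (limma adjusted p = 0.0111). Within the first run the difference was -0.49 ± 0.11 (adjusted p = 0.00946), and within the second -0.14 ± 0.13 (adjusted p = 0.628). In Mst1KO the stages read 11.12, 11.37, 11.29 and 11.18 at S1_S2 and 11.24, 11.18, 10.98, 10.83 and 11.16 at S3, with overlap. That stage difference was -0.16 ± 0.11 and did not pass (adjusted p = 0.377), and the stage differences of the genotypes differed by 0.16 ± 0.14 (adjusted p = 0.754).

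At S3 Stk38 was 1.38-fold higher in Mst1KO than in WT, by 0.47 ± 0.10 (limma adjusted p = 0.00764). Of the 5 Mst1KO_S3 arrays 3 read above every WT_S3 array, and the lowest, 10.83, was above 6 of the 7. The call held in every setting tried and without any 1 array, with differences of 0.41 to 0.58 and an adjusted p of at most 0.0237 among the fits without 1 array. Within the first run alone the difference was 0.54 ± 0.10 (adjusted p = 0.00847). Beside it, the mean over the 6 measured of 7 double-positive thymocyte markers was 6.51 to 7.04 in WT_S3 and 7.18 to 7.49 in Mst1KO_S3. Cd8a, Cd8b1, Dntt, Rag2 and Cd24a had higher means in Mst1KO_S3, while Ptcra went the other way (8.29 in WT_S3, 8.09 in Mst1KO_S3). Cd24a was above the negative controls on 0 and Rag2 on 1 of 25 arrays. The part of these markers in the S3 differences was not tested. At S1_S2 Stk38 differed between Mst1KO and WT by 0.31 ± 0.11, which did not pass (adjusted p = 0.343). There the arrays labelled dKOMst read 11.60 and 11.47, above every other array of the series. Their difference from WT was 0.50 ± 0.14 (adjusted p = 0.0857). It passed in 5 of the other settings, among them without the run term (0.55 ± 0.13, adjusted p = 0.0341), and not within the second run (0.60 ± 0.14, adjusted p = 0.141).

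Stk38l spread widely within groups, from 6.98 over 7.39 to 7.97 in WT_S1_S2 and from 7.2 over 8.15 to 8.34 in WT_S3. The WT stage difference of 0.53 ± 0.20 did not pass (limma adjusted p = 0.0795). It passed without WT_S3 replicate 4, the lowest of its group (0.64 ± 0.19, adjusted p = 0.0252), without WT_S3 replicate 6 (adjusted p = 0.0359) and without WT_S1_S2 replicate 6, the highest of its group (adjusted p = 0.0449). The Mst1KO arrays read 7.67, 7.80, 7.26 and 7.10 at S1_S2 and 8.05, 8.32, 7.72, 7.02 and 8.13 at S3. At both stages replicates 3 and 4, the arrays without Y-linked signal, were the lowest. Their title numbers pair these arrays across the stages, so the stages may not be independent here. A term for that signal was -0.68 ± 0.20 for Stk38l (limma adjusted p = 0.9998), and it called 0.0135% of all clusters and 0 of 10 members. With that term Stk38l passed between the WT stages (limma adjusted p = 0.0316). No WT array lacks the signal, so the term changed only the residual spread there and not the WT stage difference. The Mst1KO difference at S3 went from -0.0024 ± 0.23 to 0.27 ± 0.21 with it (adjusted p = 0.459). Y-linked signal and the other differences between these mice cannot be told apart.

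Lats1 and Lats2 encode the kinases that phosphorylate Yap and Taz. Lats1 varied little, with means from 10.21 in dKOMst_S1_S2 to 10.57 in Mst1KO_S3 over the groups with replicates. None of its differences passed, and the nearest was 0.21 ± 0.09 between the Mst1KO stages (limma adjusted p = 0.145). Lats2 had the widest range of the 10 members, 1.88 over 25 arrays. In WT it ran from 6.96 over 7.40 to 7.67 at S1_S2 and from 6.84 over 7.65 to 8.43 at S3. The WT stages overlapped, and their difference of 0.40 ± 0.22 did not pass (adjusted p = 0.247). In Mst1KO_S1_S2 the arrays read 6.74, 7.85, 7.86 and 7.14, and in Mst1KO_S3 7.83, 8.62, 8.13, 8.22 and 8.29. Lats2 rose between these stages by 0.82 ± 0.26 (adjusted p = 0.0474). The call was lost without any 1 of Mst1KO_S1_S2 replicates 1 and 4 and Mst1KO_S3 replicates 2, 3, 4 and 5, with an adjusted p of up to 0.214, within the first run alone (adjusted p = 0.0724), and with a term for Y-linked signal or only the arrays that carry it. Against WT at S3 Lats2 differed by 0.53 ± 0.25, which did not pass (adjusted p = 0.198). The stage differences of Lats2 in the genotypes differed by 0.42 ± 0.34, which did not pass either (limma adjusted p = 0.736).

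Rassf5 and Rassf2 bind Mst1 through their shared SARAH domain, and the short Rassf5 product RAPL links it to Rap1 and integrin activation. Rassf5 ran from 11.28 over 11.52 to 11.74 in WT_S1_S2 and from 11.67 over 11.73 to 11.91 in WT_S3. Only WT_S1_S2 replicate 2 reached into the S3 values. Rassf5 rose by 0.26 ± 0.07 from S1_S2 to S3 in WT cells (limma adjusted p = 0.0109). With fewer arrays, it was 0.31 ± 0.11 in the first run (adjusted p = 0.096) and 0.20 ± 0.09 in the second (adjusted p = 0.273). In Mst1KO the arrays read 11.19, 11.45, 11.38 and 11.42 at S1_S2 and 11.51, 11.45, 11.54, 11.38 and 11.49 at S3, a stage difference of 0.12 ± 0.09 that did not pass (adjusted p = 0.446). At S3 every Mst1KO array was below every WT array. Rassf5 was lower there by 0.28 ± 0.08, at 0.824 of the WT level (limma adjusted p = 0.0399). This call was near the threshold and was lost without WT_S3 replicate 1, 2, 3 or 6 or Mst1KO_S3 replicate 1, 2, 4 or 5, each left out in turn, with an adjusted p of up to 0.0977. Over these fits the difference stayed between -0.30 and -0.24. Within the first run it was -0.30 ± 0.10 (adjusted p = 0.096). The call was also lost with a term for Y-linked signal and with only the arrays that carry it. The stage differences of the genotypes differed by -0.14 ± 0.11 (adjusted p = 0.72).

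Rassf2 was among the steady members, with means of 11.28 in WT_S1_S2, 11.24 in Mst1KO_S1_S2, 11.42 in WT_S3 and 11.37 in Mst1KO_S3. The WT stage difference of 0.14 ± 0.05 did not pass (limma adjusted p = 0.0902). It passed without WT_S1_S2 replicate 2, the highest of its group (0.17 ± 0.05, adjusted p = 0.0375). Its lowest value in the series, 10.97, was that of the array labelled dKOMst_S3.

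By their label the dKOMst cells lack Mst2 as well as Mst1. The probe table names no cluster for Stk3, the gene of Mst2, so only Stk4 could be set beside the label. The replicates labelled dKOMst_S1_S2 read 10.27 and 9.63 for Stk4, and the WT_S1_S2 arrays of their run 10.74, 10.54 and 10.55. Both lay below the WT arrays of their run. Replicate 1 lay within the range of all WT_S1_S2 arrays only through a first-run array at 10.18, and the run term of Stk4 was 0.46. Whether the Stk4 value of this single array sets it apart from WT was not tested. Against WT the difference of Stk4 was -0.74 ± 0.20 (limma adjusted p = 0.0829), and it was -1.07 ± 0.24 without replicate 1 and -0.42 ± 0.24 without replicate 2. It passed when only clusters above the median mean level were tested (adjusted p = 0.0492) and after quantile normalization (adjusted p = 0.0466). The other members differed from WT by -0.17 to 0.26, apart from Stk38, and none passed. Against Mst1KO, from which the run also separates these arrays, the largest difference was that of Mob1b, 0.36 ± 0.17 (adjusted p = 0.59). Comparisons of dKOMst and Mst1KO with WT share the WT_S1_S2 arrays. The mean over the NK cell markers was 6.49 to 6.73 in dKOMst_S1_S2, above the 5.96 to 6.25 of WT_S1_S2, and its part in these values was not tested. The gap was uneven over the 4 genes, with group means in dKOMst_S1_S2 and WT_S1_S2 of 7.00 and 5.90 for Eomes and 7.32 and 6.75 for Tyrobp. They were 7.18 and 6.81 for Fcgr3 and 4.95 and 4.92 for Ncr1. Eomes was above the negative controls on only 7 and Ncr1 on 5 of 25 arrays.

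The array labelled dKOMst_S3 has no replicate, so its values are given without a test beside the 3 WT_S3 arrays of its run. Stk4 read 10.08 against 10.49 to 10.73 in these WT arrays. Sav1 read 8.83 against 9.10 to 9.45, within the range of WT_S1_S2. Rassf5 read 11.35 against 11.70 to 11.80. Stk38l, at 7.30, was 0.74 below the mean of the WT arrays, the largest gap of the 10 members. Rassf2 was 0.41, Lats2 0.36 and Mob1a 0.23 below theirs. Stk38 at 10.99, Lats1 at 10.60 and Mob1b at 6.95 lay within or next to the WT range. The mean over the NK cell markers on this array was 8.37, above the 7.30 to 7.85 of WT_S3, and its part was not tested.

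Other genes of the pathway were read from 5 lists of upstream kinases and scaffolds, other Rassf and Mob proteins, the STRIPAK phosphatase complex that opposes Mst kinases, and NDR scaffolds and lymphocyte effectors of Mst1. Of 58 genes, Stk3 included, 53 were measured, and each named below read above the median of the negative controls on 25 of 25 arrays. Between the WT stages 11 of 53 rose and 8 fell, where 16.9% of all clusters were called, 1817 higher and 1943 lower in S3, with a median difference of 0.05 over the 53 and 0.01 over all clusters. Among upstream kinases and scaffolds (11 of 13 measured) 1 rose and 2 fell. Wwc2, a relative of the scaffold Kibra, rose by 1.26 ± 0.19 in WT (limma adjusted p = 2.89e-05) and by 1.1 ± 0.23 in Mst1KO (adjusted p = 0.00219). Map4k4, which can phosphorylate Lats kinases in parallel to Mst, fell by 0.56 ± 0.07 in WT and 0.44 ± 0.09 in Mst1KO. Map4k1, the HPK1 kinase of lymphocytes, fell by 0.36 ± 0.07 in WT. These WT calls held without any 1 array.

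Of the 8 other Rassf genes 1 rose and 1 fell between the WT stages. Rassf1, whose product binds Mst kinases, rose by 0.45 ± 0.08 in WT (limma adjusted p = 0.000291) and by 0.40 ± 0.10 in Mst1KO (adjusted p = 0.00847). Rassf8 fell by 0.34 ± 0.11, a call lost without any 1 of 6 arrays (adjusted p up to 0.102). Of the 5 other Mob genes 2 rose and none fell. Mob3b rose by 0.90 ± 0.13 in WT, and Mob3a by 0.47 ± 0.07 in WT and 0.53 ± 0.08 in Mst1KO. The Mob3a values of WT_S3, 10.52 to 10.89, were all above those of WT_S1_S2, 10.15 to 10.35. Among STRIPAK genes (15 of 17 measured) 2 rose and 2 fell. Sike1, a link between STRIPAK and Mst kinases, rose by 0.48 ± 0.14 in WT and 0.71 ± 0.16 in Mst1KO. Stk26, an Mst-like kinase of the complex, fell by 0.31 ± 0.05 in WT, and Ppp2r1b, a scaffold subunit of protein phosphatase 2A, by 0.32 ± 0.08.

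Of the 14 NDR scaffolds and effectors 5 rose and 3 fell between the WT stages. Foxo3, a transcription factor that Mst1 can phosphorylate, rose by 0.47 ± 0.11 (limma adjusted p = 0.00254), and its run term was also called, at 0.39 ± 0.11. Sipa1, which turns Rap1 off, rose by 0.34 ± 0.06 in WT and 0.28 ± 0.07 in Mst1KO. Fry, a scaffold of NDR kinases, fell by 0.38 ± 0.13, a call lost without any 1 of 9 arrays (adjusted p up to 0.109). Foxo1, which drives homing receptor genes of naive T cells, fell between the stages of both genotypes. The difference was -0.23 in WT (limma adjusted p = 0.0152) and -0.45 ± 0.08 in Mst1KO (adjusted p = 0.00043). Its WT call was lost with arrays paired by title number. Several WT stage calls that held in the joint fit were not reached within a single run, among them Foxo1, Foxo3, Sike1 and Ppp2r1b in neither run.

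In Mst1KO against WT at S1_S2 no pathway gene was called of 53 (unadjusted limma p under 0.05 for 7), with 0.522% of all clusters called. At S3 6 of 53 were called, all higher in Mst1KO, where 6.37% of all clusters were called, 829 higher and 586 lower. Pdcd10, a STRIPAK adaptor of the Mst-like kinases, was the one whose call held without any 1 array, at 0.35 ± 0.09 (limma adjusted p = 0.0163), with 10.30 to 10.60 in Mst1KO_S3 and 9.88 to 10.30 in WT_S3. It was lost with only the groups compared, after quantile normalization and with Y-positive arrays alone. Taok1, an upstream kinase of Mst, differed by 0.37 ± 0.11 (adjusted p = 0.0488). Tnik (0.34 ± 0.09), Ppp2cb (0.29 ± 0.09), Fry (0.48 ± 0.14) and Rap1gap2 (0.54 ± 0.16) had adjusted p-values of 0.0311 to 0.0481. These 5 calls were each lost without any 1 of at least 6 of 12 arrays. None of the 53 was called for the difference of effects between stages (unadjusted limma p under 0.05 for 2), with 0.158% of all clusters called. In the arrays labelled dKOMst_S1_S2 against WT (0.923% of all clusters called), Rassf1 was higher by 0.59 ± 0.13 (adjusted p = 0.0195) and Foxo1 by 0.43 ± 0.10 (adjusted p = 0.0388). The Rassf1 call was lost without WT_S1_S2 replicate 4 or dKOMst_S1_S2 replicate 1 and its run term was 0.44 ± 0.08, while the Foxo1 call was lost without any 1 of 5 of the 8 arrays.

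**Figure D3:**
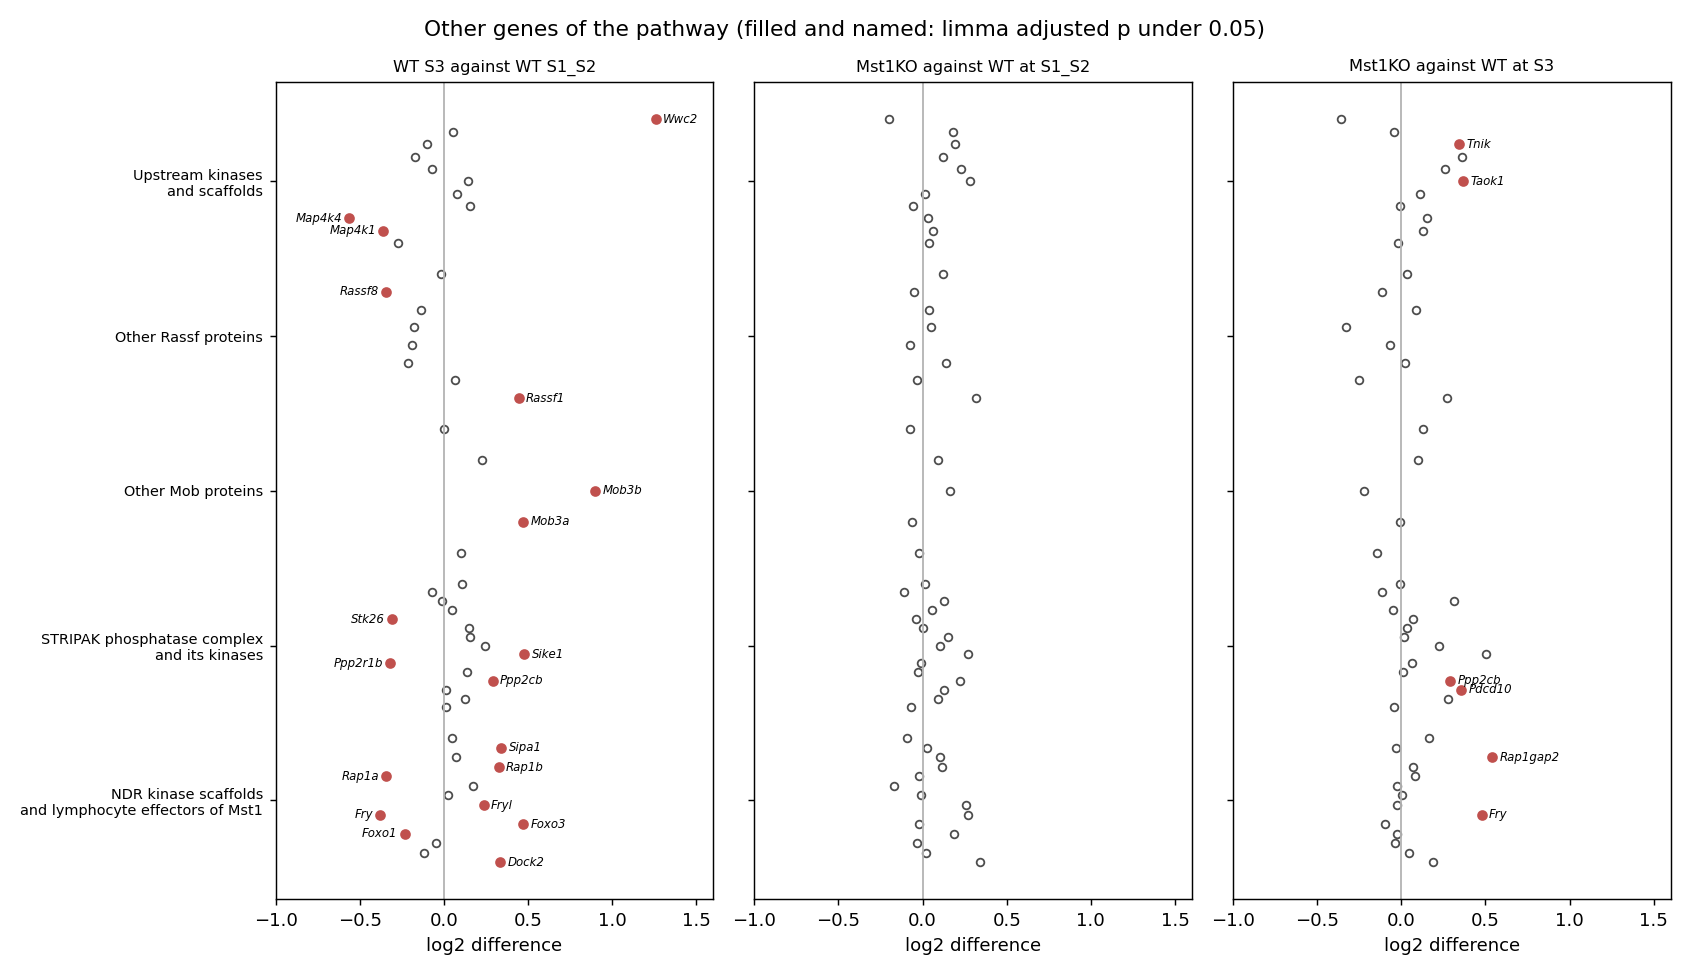
Fitted log2 differences of the 53 measured pathway genes by list in 3 comparisons, 1 point per gene, filled and named where limma's adjusted p is under 0.05. Filled points lie on both sides of 0 between the WT stages, are absent for Mst1KO at S1_S2, and lie only above 0 for Mst1KO at S3, where 6 of 53 are filled.

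The likeness of patterns was read as Pearson's r over the 25 arrays, which share groups and runs, as a description. Sav1 was most like Sntb2 (r = 0.905), Wipf1 (0.904), a partner of the actin regulator WASP, and Btg2 (0.903), an antiproliferative gene. Stk38 was most like the dynamin gene Dnm2 (0.875), Nars (0.872) and Rb1 (0.854). Rassf5 was most like Lgalsl (0.878), and Mob1a most like the transcription factor gene Ets1 (0.825). Stk4 had lower values, with Dennd2d at 0.791 as its nearest. Among the pairs of members the highest r was that of Sav1 and Mob1a, 0.709, which was 0.463 once group and run means were removed. Stk38 and Rassf5 had the lowest, -0.601, and 0.265 within group and run, so their opposite course lay between the groups. Stk38 and Stk38l had -0.08 over all arrays and 0.599 within group and run.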

How the data were processed

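Transcript levels were measured on 25 Clariom S mouse arrays of sorted thymic iNKT cells. Per the labels' protocols, thymocytes passed a CD8 microbead step, iNKT stages were sorted, RNA was extracted with an RNeasy Micro kit, and it was amplified and labelled with the NuGEN WTA Pico v2 and Encore Biotin kits. The deposited values are log2 levels. The submitters' processing notes name RMA and Affymetrix Expression Console 1.1. No source used here states the genome build of the array annotation. Values were used as deposited, from 3.04 to 13.7, with array medians of 7.28 to 7.39. RMA places arrays on one distribution, so a shift shared by most genes would not show.

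Of 28846 items 6640 controls were left out. Linear models were fitted to the 22206 clusters with limma 3.58.1 (lmFit and eBayes) in R 4.3.3, with 6 group means and an additive run term, 18 residual degrees of freedom, and the Benjamini-Hochberg adjustment across the clusters. The dKOMst_S3 array entered the fit but has no test of its own. Calls were at an adjusted p under 0.05. No minimum fold was set. The labels name no batch, and the run was read from a gap in the title numbers. Replicates were numbered in accession order, and the main fit treats the arrays as unpaired. Pairs read from title numbers were tried as a block. The fit was tested on simulated data. Tables were read with jsonlite 2.0.0.

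The members and lists were chosen with earlier results of these data known. All 10 members are named whatever their test, of each pathway list up to 3 called genes with the largest change in a comparison, and for likeness up to 3 clusters with the highest r. The plot of the pathway names every called gene. Alternatives changed the run term, the arrays, the normalization, the clusters tested, the variance model and array weights, added a term for Y-linked signal, or left out each array in turn. Y-linked signal was the mean over Y-linked clusters, called present above the array's median negative control. Its term for single members, the alternatives for pathway genes, and the motifs and promoters printed were added after seeing the data. The number of arrays limits the precision.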

Additional observations from a re-analysis of the deposited data

Results flagged for a closer look

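In groups of 4 to 10 arrays the highest and lowest values were examined with Dixon's ratio, the gap to the nearest other value over the group's range, against its 95% critical value for that number of arrays. Of 40 pairs of member and group 2 exceeded it, a test that chance alone passes in about 1 in 20 groups. Mob1a in WT_S1_S2 replicate 2 read 11.11, above the next highest array at 10.97, a ratio of 0.729. Mob1b in Mst1KO_S1_S2 replicate 1 read 6.83, below the next lowest at 7.11, a ratio of 0.887.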

How the results depend on the processing

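The labels give no replicate numbers, but title numbers lie at a fixed offset between S1_S2 and S3 within a run. Of 10 such pairs of WT or Mst1KO arrays 2 had deviations that correlated above 0.1 (range -0.11 to 0.17). Among the S3 arrays of the same genotype and run alone, the S1_S2 array correlated best with that of its own number in 10 of 10. Some of these best correlations were below 0. The Mst1KO arrays without Y-linked signal, replicates 3 and 4 of each stage, also fall into these pairs. Arrays of a pair may thus share a source, a hint from the data and not the design. The main stage tests do not use such a pairing. With these pairs as a replicate block, chosen after seeing the data, 4 members were called between the WT stages, Stk38l joining (0.48, limma adjusted p = 0.0449), and 2 between the Mst1KO stages, Lats2 among them (0.80, limma adjusted p = 0.0159). Over all clusters the difference of effects between stages had 9 calls with that block and 53 with it at random, against 35 without. With the block at random 0 members were called for the run, and no other member call changed. Of 862 values of members and comparisons under other settings 828 kept their direction and side of the threshold. Of the others 16 fell below it, 15 passed it and 3 changed sign. Among the 930 such values from the fits without 1 array these were 903, 21, 5 and 1. A change of sign in an uncalled value was counted only if the value moved by more than the standard error of the full fit, which left 52 others uncounted. The sign changes were those of Stk38l in Mst1KO at S3 (0.32 with Y-positive arrays only, 0.27 with a term for that signal), of Stk4 between the WT stages (0.014 with the second run only) and of Stk4 in dKOMst against Mst1KO, where leaving out 1 array gave -0.14 to 0.50. Members called between the WT stages numbered 5 with the brighter clusters only and 5 with a trended and robust variance, but 1 with the second run only. In dKOMst against WT 1 was called with array weights, without the run term, with the run as a random block, after quantile normalization or with the trended variance, and 2 with the brighter clusters. With Y-positive arrays only, 0 were called in Mst1KO at S1_S2, 1 in Mst1KO at S3, 1 between the Mst1KO stages and 0 for the run. In Mst1KO at S3 1 was called with only the groups compared, with the first run only or with the term for Y-linked signal, and 1 to 2 without 1 array. Between the Mst1KO stages 1 was called with the first run only or with that term, and 1 to 2 without 1 array. For the run 0 were called with array weights, only the groups compared or quantile normalization, and 0 to 1 without 1 array. Fewer arrays entered the fits with 1 run, 1 kind of array or only the groups compared, and for the other settings the cause was not tested. With all 7 WT_S3 arrays and the run term, Rassf2 in dKOMst_S3 was -0.39 from WT. The comparison of dKOMst with Mst1KO could not be fitted within a run or with only its own groups, since they lie in different runs, and no member had another cluster to try.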
